A study of Mus musculus with 12 samples.

Results

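Sphingosine-1-phosphate (S1P) is a signaling lipid made from the ceramide backbone, and 8 genes of its life cycle were followed here: the kinases Sphk1 and Sphk2, the lyase Sgpl1, the phosphatase Sgpp1, the exporter Spns2 and the receptors S1pr1, S1pr2 and S1pr4. They were chosen by name, and all 8 were among the 20792 genes listed for each of the 12 libraries. Hematopoietic stem and progenitor cells (HSPCs) had been sorted from mouse bone marrow by a gate that takes cells with c-kit and Sca-1 and without lineage markers and CD127, and their total RNA was sequenced in 3 libraries per group. HSD ICHD7 cells came from male wild-type (WT) mice that received a high-salt diet (HSD, chow with 8% NaCl and drinking water with 1% NaCl) for 8 weeks and were then taken 7 days after intracerebral hemorrhage (ICH), modeled by injection of autologous blood into the brain. ND ICHD7 cells came from mice on normal diet (ND, chow with 0.5% NaCl and tap water) with the same hemorrhage. HSD and ND cells came from mice with the same 8 weeks of diet and no ICH. Diets began at 4 to 6 weeks of age, and all mice with ICH were given ND after it, so HSD ICHD7 mice had eaten ND for their last 7 days. HSD ICHD7 against HSD thus spans both ICH and 7 days off high salt, which cannot be told apart. Differences described below as those of ICH on HSD, and the interaction of diet and ICH, hold both. Each HSD and ND library was pooled from 3 animals, and no such number was given for the libraries after ICH.

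S1P is formed inside cells when SPHK1 or SPHK2 phosphorylates sphingosine. It is dephosphorylated by SGPP1 or cleaved for good by SGPL1, the lyase that ends the pathway, and SPNS2 carries it out of the cell. Outside, it binds G protein-coupled receptors. S1P is high in blood and lymph and kept low within tissues, and S1PR1 guides lymphocytes and circulating progenitors along this gradient, whereas S1PR2 opposes movement toward S1P and S1PR4 is largely restricted to blood cells.

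The libraries held 8678304 to 27491973 reads, and values are given as CPM, reads scaled to a common library size. All 12 HSPC markers on the list had reads in every library, with Kit at 329 to 487 CPM. Ly6a, which encodes the Sca-1 antigen of the sort, was detected at only 2.42 to 6.72 CPM. HSD ICHD7 replicate 3, the deepest library, stood apart with a summed HSPC marker level of 1016 CPM, against 1505 to 1862 CPM in the other 11 libraries. The 12 macrophage markers, genes of cells that the sort should remove, summed to 797 CPM in HSD replicate 2 and 454 CPM in ND replicate 1, against 72.4 to 179 CPM in the other 10. All 12 macrophage markers had reads in every library. The files listed 2 to 29 genes without a read in each library after ICH and 1393 to 1755 in each library without ICH, and an effect of ICH and such a difference in library character cannot be told apart. The 8 measured genes of a list from other organs summed to 7.19 to 12.3 CPM in HSD ICHD7, 17.6 to 23.1 CPM in ND ICHD7, 1.48 to 2.21 CPM in HSD and 5.11 to 7.87 CPM in ND libraries. That sum separated the diets as well as ICH, with HSD below ND and HSD ICHD7 below ND ICHD7, and its part in the diet differences given here was not tested. In RNA from bulk cells, fewer cells of a type and less RNA per cell cannot be told apart either.

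Spns2 was by far the most abundant S1P transcript of these cells. Per kilobase of merged exons it averaged 32.6 CPM over the 12 libraries, higher than 94.3% of 20511 genes with a known length. Sphk2 followed at 5.51 CPM per kilobase, Sgpl1 at 4.90, S1pr4 at 4.19, Sgpp1 at 3.69 and S1pr1 at 2.68. S1pr2 at 0.555 CPM per kilobase and Sphk1 at 0.381 CPM per kilobase were the lowest. Spns2 exceeded Sphk2 and S1pr1 exceeded S1pr2 in all 12 libraries, with no overlap of their values. The 5 genes between them formed a middle tier in which neighbors overlapped: the order of means held for Sphk2 over Sgpl1 in 11 libraries, for Sgpl1 over S1pr4 in 11, for S1pr4 over Sgpp1 in 10 and for Sgpp1 over S1pr1 in 11. S1pr2 was above Sphk1 in 8 of 12 libraries. Mfsd2b, the S1P exporter of red cells and platelets, averaged 5.70 CPM per kilobase, far below Spns2.

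**Figure D1:**
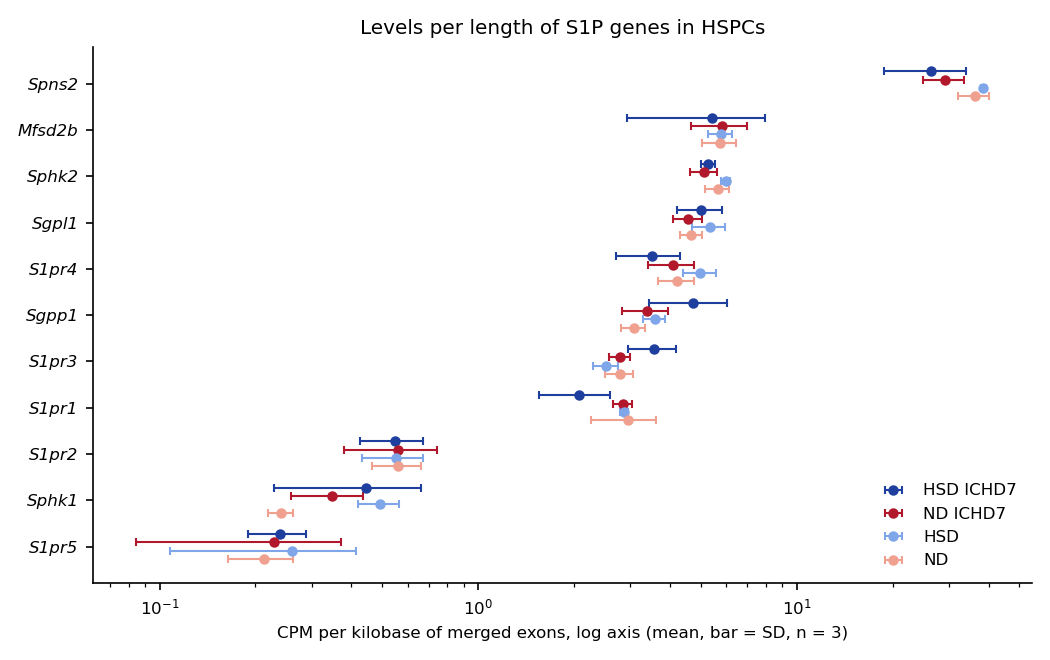
Level per length (CPM per kilobase of merged exons, log axis) of the 8 S1P genes and of S1pr3, S1pr5 and Mfsd2b, as mean and SD of 3 libraries per group. Spns2 lies well above the others, and Sphk1 lies far below Sphk2 in each of the 4 groups.

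Sphk1, the kinase best known for induction by cytokines and growth factors, was the only one of the 8 genes whose HSD and ND libraries did not overlap before ICH. Its level was 2.71, 2.01 and 2.32 CPM in HSD replicates 1 to 3, against 1.26, 1.05 and 1.14 CPM in ND replicates 1 to 3. Every HSD library was above every ND library, and the means were 2.35 ± 0.35 CPM in HSD and 1.15 ± 0.10 CPM in ND (SD, n = 3 each), a ratio of 2.04. These values rest on few reads, 20 to 45 per HSD library and 16 to 18 per ND library. On the log2 scale the fold change was 0.78 ± 0.23 (SE) with a 95% interval from 0.28 to 1.28. Its unadjusted p was 0.00507, and adjusted over all genes by limma with Benjamini-Hochberg it was 0.478, so the difference did not pass the correction. Without HSD replicate 2 and ND replicate 1, the pair high in macrophage markers, the log2 fold change was 0.92 and limma's adjusted p was 0.20. That setting was chosen after seeing the data. Over 15 alternatives (limma, edgeR and DESeq2) the adjusted p ranged from 0.20 to 0.999. Sphk1 had been singled out by earlier work on these libraries, so its diet difference is a description and not independent support.

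On day 7 after ICH the diets no longer separated Sphk1. HSD ICHD7 replicates 1 to 3 had 3.14, 2.14 and 1.08 CPM, and ND ICHD7 replicates 1 to 3 had 2.10, 1.25 and 1.62 CPM. The highest HSD ICHD7 library was the highest of all 12, while replicate 3 of that group lay among the ND values, and the groups overlapped. HSD ICHD7 against ND ICHD7 gave a log2 fold change of 0.22 with a 95% interval from -0.49 to 0.93, and it was 0.54 without HSD ICHD7 replicate 3. ND ICHD7 libraries also lay mostly above ND libraries, with a log2 fold change of 0.37 and an interval from -0.073 to 0.81. The interaction of diet and ICH was -0.56 on the log2 scale for Sphk1 (unadjusted p = 0.168, limma's adjusted p = 0.682 in the fit of 12 libraries), so the diet differences without and with ICH were not shown to differ.

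Sphk2, the kinase found in the nucleus and mitochondria, varied little, with 22.1, 20.7 and 22.9 CPM in HSD ICHD7, 23.3, 19.2 and 21.1 CPM in ND ICHD7, 24.3, 25.8 and 24.6 CPM in HSD and 24.6, 21.2 and 24.8 CPM in ND libraries. Its diet difference without ICH had a log2 fold change of 0.08 with a 95% interval from -0.13 to 0.30, and that after ICH was 0.05 with an interval from -0.23 to 0.32. All HSD ICHD7 libraries were below all HSD libraries, by -0.18 on the log2 scale (unadjusted p = 0.128, limma's adjusted p = 0.368). Within each library, Sphk1 made up a small part of the kinase transcripts per length. That share was 7.75 ± 3.56% in HSD ICHD7, 6.30 ± 0.95% in ND ICHD7, 7.61 ± 1.26% in HSD and 4.09 ± 0.21% in ND libraries (SD, n = 3 each). The share lay between 6.35% and 8.87% in HSD libraries, above the 3.87% to 4.26% of ND libraries.

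A promoter window of each kinase is shown, chosen for the motifs it holds. Sphk1 (GRCm38, chr11:116530925-116536674, plus strand) has 5 RefSeq starts in the GRCm38.p6 table. The 250 bases before the start at 116531837 (chr11:116531587-116531836) held an AP-1 motif (TGANTCA, both strands searched) and a pair of CACCC boxes (CCACCC), shown in capitals. Sphk2 (chr7:45709467-45718002, minus strand) has 2 starts, and the 250 bases before its outer start (chr7:45718003-45718252) held a GC box (GGGCGG), in capitals.
Sphk1: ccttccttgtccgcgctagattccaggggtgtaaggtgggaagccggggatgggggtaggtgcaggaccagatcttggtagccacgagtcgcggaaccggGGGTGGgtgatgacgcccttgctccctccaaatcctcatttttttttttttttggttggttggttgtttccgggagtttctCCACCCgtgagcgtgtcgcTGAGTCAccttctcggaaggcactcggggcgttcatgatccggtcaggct
Sphk2: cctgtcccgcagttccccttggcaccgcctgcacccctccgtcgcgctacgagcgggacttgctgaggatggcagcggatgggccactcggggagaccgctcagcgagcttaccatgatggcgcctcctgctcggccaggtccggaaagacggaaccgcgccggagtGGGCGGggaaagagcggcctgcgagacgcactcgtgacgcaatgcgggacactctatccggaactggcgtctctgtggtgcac
Of 32851 promoter windows of the same length, 6.75% held the AP-1 letters, 28.1% the CACCC box and 32.7% the GC box. A match is a description of letters and not a site of binding. The inner Sphk2 window held a CACCC box too, beside 2 GC boxes, and the outermost Sphk1 window (chr11:116530850-116531099) held none of these 3 motifs. The same AP-1 match stood in 2 of the 5 Sphk1 windows, in the stretch where these 2 overlap. No AP-1 match stood in the windows of Sphk2, Sgpl1, Sgpp1, S1pr2, S1pr4 and Spns2, for which fewer windows per gene were searched. The 7 genes named here were the ones matched in the promoter table. CRE (TGACGTCA) and EGR (GCGTGGGCG) letters were searched too, and stood in 1.55% and 0.536% of the 32851 windows. The S1pr2 window held 1 CRE match, and no window of the 7 genes held the EGR letters.

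Sphk2 overlaps other genes, which bears on its level. It shares 373 exonic bases (8.97% of its exons) with Rpl18 and 539 exonic bases (12.96%) with Dbp, both on the opposite strand, and Rpl18, a ribosomal protein gene, was measured at 311 to 483 CPM. Spns2 (chr11:72451638-72489904, minus strand) shares 131 exonic bases (3.21%) at its 3' end with Mybbp1a, measured at 174 to 255 CPM. Sphk1 shares 192 exonic bases (4.02%) with the antisense gene Gm29292. The library kit keeps strand, but whether counting used it was not given in the sources used here, so part of the reads of these genes may come from their partners.

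Spns2, which exports S1P from the cell and is best known from endothelium, had the smallest p of the 8 genes for ICH on either diet. Its level was 117, 133 and 73.2 CPM in HSD ICHD7 replicates 1 to 3, against 161, 156 and 156 CPM in HSD replicates 1 to 3. The 3 HSD ICHD7 libraries were all below the HSD libraries. The means were 108 ± 31 CPM in HSD ICHD7 and 157 ± 3.0 CPM in HSD (SD, n = 3 each), a ratio of 0.684. The log2 fold change was -0.59 ± 0.19 (SE) with a 95% interval from -1.02 to -0.16 (unadjusted p = 0.0124, limma's adjusted p = 0.115). Without HSD ICHD7 replicate 3 it was -0.33 with limma's adjusted p at 0.0806. Without that library and HSD replicate 2, a setting chosen after seeing the data, it was -0.34 with limma's adjusted p at 0.0327. In the fit of all 12 libraries limma's adjusted p was 0.0465. The adjusted p ranged from 0.0327 to 0.293 over 16 alternatives (limma, edgeR and DESeq2), and the unadjusted p stayed under 0.05 in all 16. The 12 HSPC markers summed to 1016 to 1530 CPM in HSD ICHD7, 1621 to 1638 CPM in ND ICHD7, 1690 to 1862 CPM in HSD and 1690 to 1825 CPM in ND libraries. The HSPC sum was thus lower after ICH on both diets, and its part in the differences of Spns2, S1pr1, S1pr4 and Sgpp1 was not tested. The 6 endothelial markers measured here, of 8 on the list, did not move one way. Their sum was 27.5 to 41.2 CPM in HSD ICHD7, 40.8 to 51.3 CPM in ND ICHD7, 57.8 to 62.7 CPM in HSD and 53.3 to 66.3 CPM in ND libraries, with at most 1 of the 6 at 0 in a library, and most of it was Tie1, at 18.2 to 28.7 CPM in HSD ICHD7, 22.7 to 31.2 CPM in ND ICHD7, 44.6 to 47.6 CPM in HSD and 36.2 to 51.6 CPM in ND libraries. Cdh5, the cadherin that defines endothelium, was near 0 without ICH and averaged 0.864 CPM in HSD ICHD7 and 1.07 CPM in ND ICHD7, against 0.054 CPM in HSD and 0.223 CPM in ND libraries. Kdr and Plvap also had higher means after ICH on both diets, and Stab2 did on ND. On HSD the Stab2 mean was lower after ICH, at 2.85 CPM in HSD ICHD7 against 4.74 CPM in HSD libraries. Emcn had lower means after ICH on both diets. They were 5.32 CPM in HSD ICHD7 against 6.68 CPM in HSD, and 8.15 CPM in ND ICHD7 against 8.83 CPM in ND libraries.

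In mice on ND the exporter was lower after ICH too. Spns2 was measured at 125, 99.5 and 134 CPM in ND ICHD7 replicates 1 to 3, against 132, 146 and 165 CPM in ND replicates 1 to 3. The highest ND ICHD7 library reached past the lowest ND library, so the groups overlapped. This gave a log2 fold change of -0.31 with a 95% interval from -0.58 to -0.036 (unadjusted p = 0.0302, limma's adjusted p = 0.126). Between the diets Spns2 did not separate. Its log2 fold change for HSD against ND was 0.10 with an interval from -0.086 to 0.28, and for HSD ICHD7 against ND ICHD7 it was -0.18 with an interval from -0.66 to 0.29, with the sign turned to 0.07 when HSD ICHD7 replicate 3 was left out. The interaction was -0.28 (unadjusted p = 0.282, limma's adjusted p = 0.758), so the ICH differences on HSD and on ND were not shown to differ. The difference on HSD also holds the return to ND after ICH. Of 12912 genes with a mean of at least 50 reads, Mdga1 and Arhgef40 had the levels most like those of Spns2, with Pearson r of 0.99 and 0.98 over the 12 libraries.

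**Figure D2:**
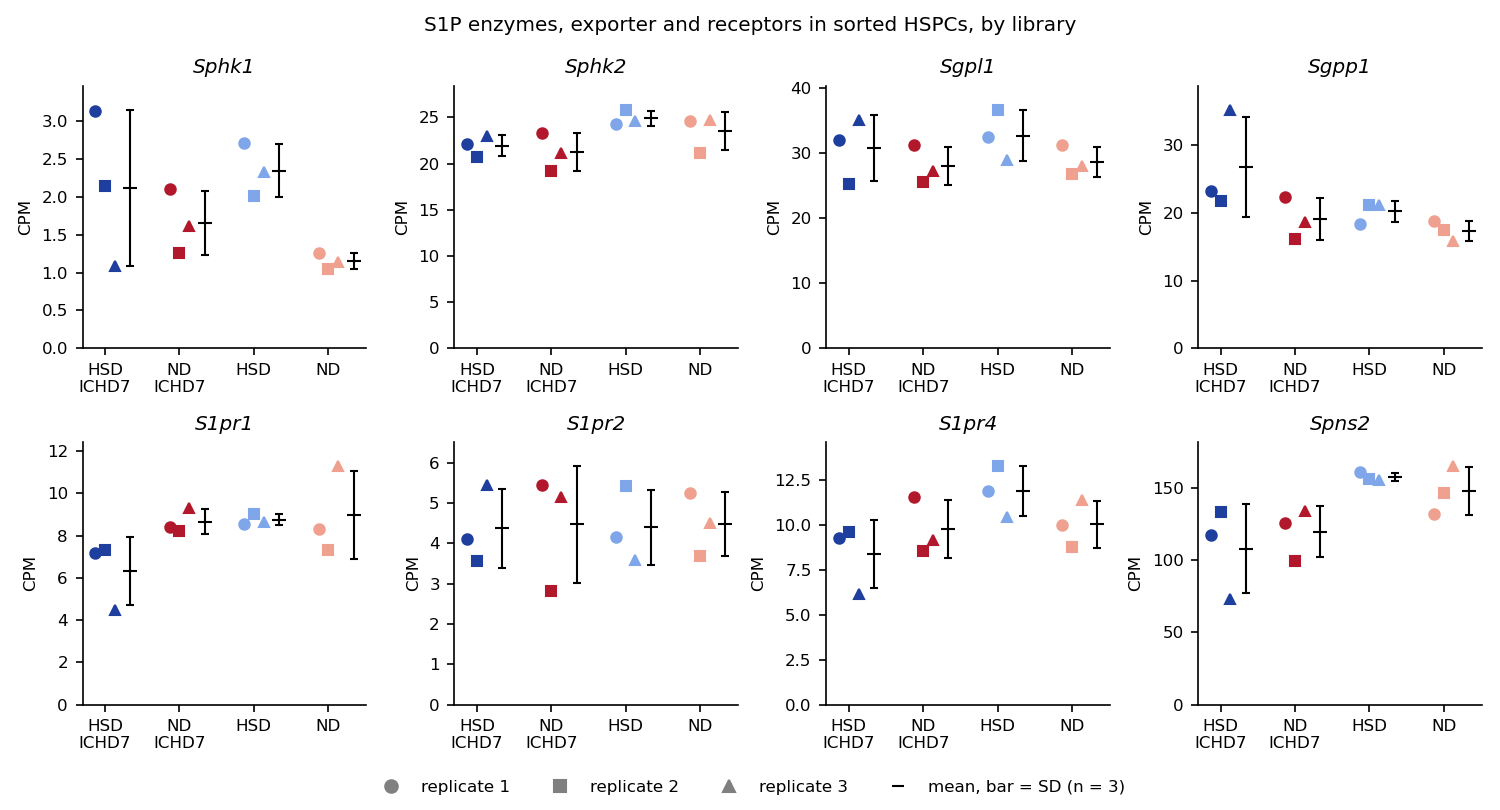
CPM of each of the 8 genes in every library (points, replicates 1 to 3) with mean and SD (n = 3) per group. HSD libraries are above ND libraries for Sphk1, and HSD ICHD7 replicate 3 (triangle) is the lowest of all 12 for Spns2, S1pr1 and S1pr4 and the highest for Sgpp1.

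S1pr1, the receptor that draws cells toward S1P (chr3:115710433-115715072, minus strand), was lower in the HSD ICHD7 libraries than in all other libraries but 1. Its level was 7.17, 7.32 and 4.48 CPM in HSD ICHD7 replicates 1 to 3, against 8.41, 8.24 and 9.32 CPM in ND ICHD7 replicates 1 to 3. All HSD ICHD7 libraries were below all ND ICHD7 libraries. Their log2 fold change was -0.45 ± 0.20 (SE) with a 95% interval from -0.91 to 0.0048 (unadjusted p = 0.052, limma's adjusted p = 0.321). Without HSD ICHD7 replicate 3 it was -0.24 with limma's adjusted p at 0.609, within a range of 0.201 to 0.977 over 16 alternatives.

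Before ICH the receptor was level between the diets. S1pr1 was measured at 8.56, 9.04 and 8.66 CPM in HSD libraries, against 8.33, 7.30 and 11.3 CPM in ND libraries, and ND replicate 2 at 7.30 CPM was the library that lay just below the highest HSD ICHD7 value. The log2 fold change for HSD against ND was -0.012 with an interval from -0.38 to 0.35. HSD ICHD7 libraries lay below all HSD libraries, with a log2 fold change of -0.47 (unadjusted p = 0.0499, limma's adjusted p = 0.232). That difference was -0.26 without HSD ICHD7 replicate 3. ND ICHD7 against ND gave -0.028 with an interval from -0.41 to 0.36. The interaction was -0.44 with an interval from -1.03 to 0.15 (limma's adjusted p = 0.648).

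S1pr4, a receptor of blood cells (chr10:81497747-81500132, minus strand), was also lowest in HSD ICHD7 replicate 3. The HSD ICHD7 values were 9.29, 9.61 and 6.18 CPM in replicates 1 to 3, against 11.9, 13.3 and 10.46 CPM in HSD replicates 1 to 3, with no overlap. This was a log2 fold change of -0.50 ± 0.20 (SE) with a 95% interval from -0.95 to -0.053 (unadjusted p = 0.0321, limma's adjusted p = 0.188). Without HSD ICHD7 replicate 3 it was -0.31. ND ICHD7 libraries at 11.6, 8.54 and 9.18 CPM overlapped ND libraries at 10.01, 8.74 and 11.4 CPM, and the log2 fold change was -0.042 with an interval from -0.40 to 0.31. HSD against ND gave 0.23 with an interval from -0.087 to 0.55, and for HSD ICHD7 against ND ICHD7 it was -0.23 with an interval from -0.68 to 0.23. The interaction was -0.46 (unadjusted p = 0.0985, limma's adjusted p = 0.632).

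S1pr2, the receptor that couples to G12 and G13 proteins and restrains migration (chr9:20962361-20976781, minus strand), showed no direction. Its range was 3.55 to 5.45 CPM in HSD ICHD7, 2.81 to 5.46 CPM in ND ICHD7, 3.59 to 5.43 CPM in HSD and 3.68 to 5.25 CPM in ND libraries. The log2 fold changes of the 4 comparisons lay between -0.039 and -0.00094, and their sign turned with the setting. The widest 95% interval, for HSD ICHD7 against ND ICHD7, ran from -0.60 to 0.60, and differences within it could not be told from no change. S1pr2 had 34 to 151 reads per library.

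S1pr3 and S1pr5 complete the receptor family. Per length, S1pr4 took the largest part of the 5 receptor transcripts in 11 of 12 libraries, at 28.1% to 39.1% in HSD ICHD7, 36.3% to 41.7% in ND ICHD7, 42.7% to 46.8% in HSD and 38.4% to 40.5% in ND libraries. S1pr1 took 16.0% to 23.3% in HSD ICHD7, 23.8% to 29.0% in ND ICHD7, 24.6% to 27.7% in HSD and 25.1% to 31.5% in ND libraries. S1pr3, a receptor with broad expression in tissues, took 30.4% to 46.4% in HSD ICHD7, 25.2% to 27.3% in ND ICHD7, 19.4% to 24.4% in HSD and 21.3% to 29.4% in ND libraries. The make-up of the HSD ICHD7 libraries thus leaned to S1pr3, most of all in replicate 3. In CPM, S1pr3 was 14.8, 14.0 and 19.1 in HSD ICHD7, against 12.3, 10.2 and 11.2 in HSD, with a log2 fold change of 0.47 (unadjusted p = 0.0155, limma's adjusted p = 0.13, or 0.0448 in the fit of all 12 libraries). Its interaction of diet and ICH was also 0.47 (unadjusted p = 0.0337, limma's adjusted p = 0.583). S1pr5 took at most 3.39%, and S1pr2 at most 7.42%.

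**Figure D3:**
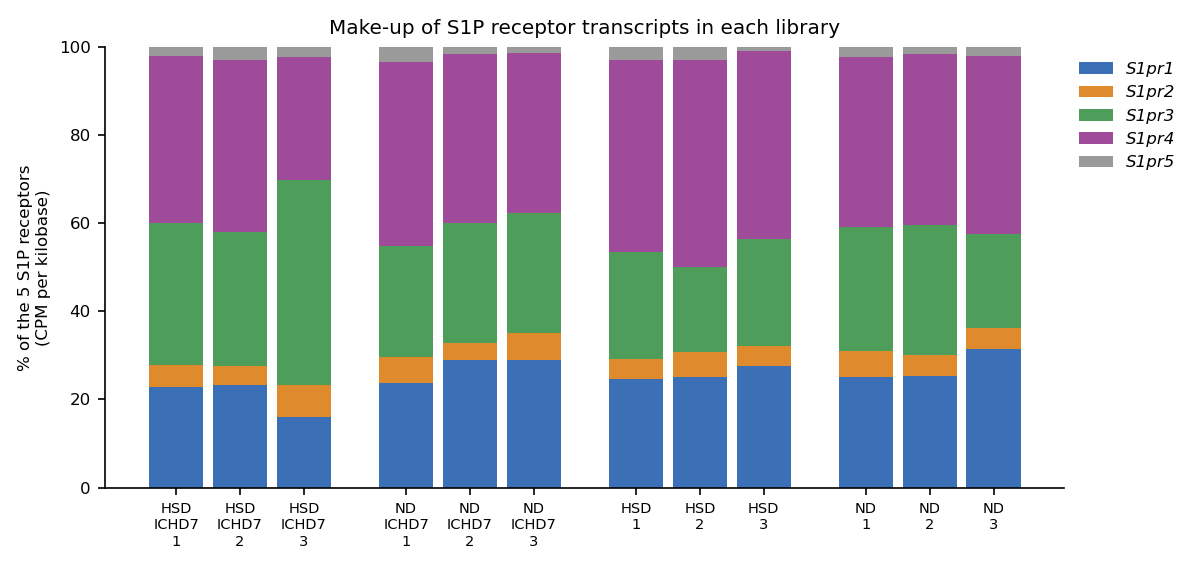
Share of each S1P receptor in the summed CPM per kilobase of the 5 receptors, 1 bar per library. HSD ICHD7 libraries hold 16.0% to 23.3% S1pr1 and 30.4% to 46.4% S1pr3, and replicate 3 of that group is the 1 library in which S1pr4 is not the largest part.

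Sgpp1, the phosphatase that returns S1P to sphingosine for reuse in ceramide (chr12:75714249-75735729, minus strand), was highest in HSD ICHD7 replicate 3. That library was the lowest for S1pr1, S1pr4 and the sum of HSPC markers. The level of Sgpp1 was 23.3, 21.7 and 35.3 CPM in HSD ICHD7 replicates 1 to 3, against 22.4, 16.2 and 18.7 CPM in ND ICHD7 replicates 1 to 3. Replicate 3 of HSD ICHD7 was the highest of all 12 libraries, and the groups overlapped. Here the log2 fold change was 0.45 ± 0.20 (SE) with a 95% interval from 0.014 to 0.90 (unadjusted p = 0.0445, limma's adjusted p = 0.312), and it was 0.24 without that replicate. HSD libraries had 18.4, 21.2 and 21.1 CPM, all below the HSD ICHD7 libraries, and ND libraries had 18.8, 17.4 and 15.9 CPM. The log2 fold change for HSD ICHD7 against HSD was 0.36 (unadjusted p = 0.0737, limma's adjusted p = 0.28) and was 0.15 without HSD ICHD7 replicate 3. HSD against ND gave 0.22 with an interval from -0.031 to 0.46. ND ICHD7 against ND gave 0.12 with an interval from -0.18 to 0.43.

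Sgpl1, the lyase (chr10:61098642-61147703, minus strand), did not separate any groups. Libraries were measured at 32.1, 25.3 and 35.1 CPM in HSD ICHD7, 31.3, 25.6 and 27.2 CPM in ND ICHD7, 32.6, 36.7 and 28.9 CPM in HSD and 31.2, 26.8 and 28.1 CPM in ND libraries, and all 4 groups overlapped. Its log2 fold change for HSD against ND was 0.18 with a 95% interval from -0.050 to 0.42. HSD ICHD7 against ND ICHD7 gave 0.13 with an interval from -0.20 to 0.46.

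None of the 8 genes passed an adjusted p of 0.05 by limma in the main fits of the 5 comparisons. For HSD against ND without ICH this stands beside 13 of 16787 tested genes (0.0774%) that did. There, 1 of the 8 genes (Sphk1) was higher at an unadjusted p under 0.05, against 3.65% of all tested, and 1 was higher without overlap, against 7.07%. After ICH, 0 of 20079 genes (0%) passed the adjusted threshold between the diets with limma and with edgeR, 98 passed with DESeq2, and 3134 had an unadjusted p under 0.05 with limma. In that comparison 1 of the 8 genes (Sgpp1) was higher at an unadjusted p under 0.05, against 5.42% of all tested, and 1 (S1pr1) was lower without overlap, against 13.3%. HSD ICHD7 against HSD gave 6.58% of 18082 genes past the adjusted threshold, with 5.31% above and 1.26% below HSD. Of the 8 genes, 3 (Spns2, S1pr4 and S1pr1) were lower at an unadjusted p under 0.05, against 9.73% of all tested. Groups did not overlap for 4 genes that were lower (these and Sphk2), against 14.5%, and for 1 that was higher (Sgpp1), against 14.2%. Without HSD ICHD7 replicate 3, Spns2 against HSD was the only one of these genes left at an unadjusted p under 0.05 in the comparisons that use that group.

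ND ICHD7 against ND gave 16.7% of 19387 genes past the adjusted threshold, 13.5% higher and 3.23% lower. There, 1 of the 8 genes (Spns2) was lower at an unadjusted p under 0.05, against 10.3% of all tested, and none had groups without overlap, against 33.4%. The interaction gave 0 of 20393 genes (0%) past the adjusted threshold with limma, edgeR and DESeq2. At an unadjusted p under 0.05 with limma it gave 1703 genes (8.35%) and none of the 8. The median log2 fold change of the 8 genes was 0.14 for HSD against ND, 0.023 for HSD ICHD7 against ND ICHD7, -0.19 for HSD ICHD7 against HSD and -0.036 for ND ICHD7 against ND. Over all genes tested the medians were 0.017, -0.031, -0.0052 and 0.0055 in the same order. The comparisons share libraries (HSD ICHD7, for example, enters both its diet and its ICH comparison), so their values are set side by side and do not support each other.

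**Figure D4:**
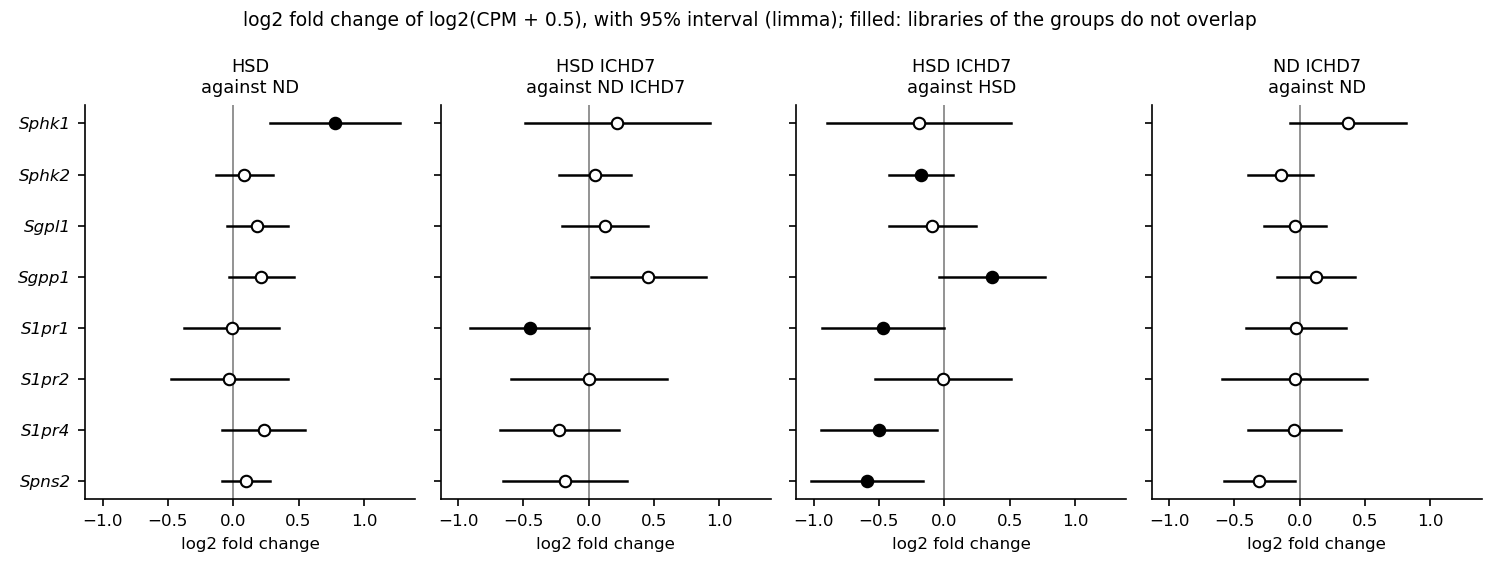
log2 fold change of the 8 genes in 4 comparisons, with 95% intervals from limma on log2(CPM + 0.5). Filled points mark genes whose libraries did not overlap between the groups: Sphk1 for HSD against ND, S1pr1 for HSD ICHD7 against ND ICHD7, and Sphk2, Sgpp1, S1pr1, S1pr4 and Spns2 for HSD ICHD7 against HSD.

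Among 15 measured genes that control or relay S1P receptors, Klf2 and Cd69 bear on S1PR1 itself and had the smallest p for HSD against ND. Klf2, the transcription factor that drives S1pr1 in T cells, was measured at 7.36, 9.24 and 5.28 CPM in HSD libraries, against 9.73, 14.2 and 10.7 CPM in ND libraries. All HSD libraries were below all ND libraries, with a log2 fold change of -0.64 (unadjusted p = 0.00833, limma's adjusted p = 0.524). Without HSD replicate 2 and ND replicate 1, a setting chosen after seeing the data, the log2 fold change of Klf2 was -0.93 and limma's adjusted p was 0.0394, the lowest of its alternatives, which reached up to 0.999. After ICH, Klf2 was measured at 7.92, 3.11 and 4.52 CPM in HSD ICHD7 libraries, against 11.04, 9.08 and 8.52 CPM in ND ICHD7 libraries. These groups did not overlap either, and the log2 fold change was -0.90 (unadjusted p = 0.0108, limma's adjusted p = 0.26). Cd69, whose protein binds S1PR1 and takes it off the surface of lymphocytes, was measured at 15.6, 11.2 and 15.1 CPM in HSD libraries, against 19.6, 22.8 and 19.7 CPM in ND libraries. Its log2 fold change was -0.56 (unadjusted p = 0.00163, limma's adjusted p = 0.318), and after ICH the diets overlapped, with 18.4, 12.2 and 24.1 CPM in HSD ICHD7 and 16.0, 21.2 and 17.9 CPM in ND ICHD7 libraries.

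In the main fits, none of these 15 genes passed the adjusted threshold in either direction between the diets or for HSD ICHD7 against HSD. Gna12, a G protein subunit, was measured at 40.8, 44.2 and 48.5 CPM in HSD ICHD7 and 37.3, 26.6 and 33.3 CPM in ND ICHD7 libraries (unadjusted p = 0.00907, limma's adjusted p = 0.26). For ND ICHD7 against ND, 2 of the 15 fell and none rose at the adjusted threshold, beside 3.23% of all tested genes that fell and 13.5% that rose. Arrb2, a beta-arrestin that takes receptors off signaling, fell by 0.47 on the log2 scale (limma's adjusted p = 0.00144), and Gna13, which couples S1PR2 to RhoA, fell by 0.29 (limma's adjusted p = 0.0339). The call of Gna13 was lost without any 1 of the 6 libraries, with limma's adjusted p at 0.0697 to 0.16, and that of Arrb2 was kept at up to 0.0465. For HSD ICHD7 against HSD, Arrb2 had a log2 fold change of -0.35 with limma's adjusted p at 0.114.

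Upstream of S1P, the sphingomyelin synthase Sgms2, which turns ceramide into sphingomyelin, was higher after ICH on both diets. The differing character of the libraries after ICH and, on HSD, the 7 days back on ND cannot be told apart from ICH here. Sgms2 had only 18 to 30 reads per HSD library and 9 to 31 per ND library. Its level was 13.1, 10.8 and 52.4 CPM in HSD ICHD7 replicates 1 to 3, against 1.81, 2.31 and 1.90 CPM in HSD replicates 1 to 3. All HSD ICHD7 libraries were above all HSD libraries, and replicate 3 lay far above the others of its group. That was a log2 fold change of 3.01 (limma's adjusted p = 0.00813). Without HSD ICHD7 replicate 3 it was 2.31 (limma's adjusted p = 0.000109), and without HSD ICHD7 replicate 1 limma's adjusted p was 0.0624. On ND the level was 6.18, 5.91 and 6.53 CPM in ND ICHD7 libraries, against 2.17, 1.71 and 0.571 CPM in ND libraries, with a log2 fold change of 1.86 (limma's adjusted p = 0.00149). For Sgms2, HSD ICHD7 against ND ICHD7 gave 1.58 on the log2 scale (limma's adjusted p = 0.26), and 0.89 without HSD ICHD7 replicate 3 (limma's adjusted p = 0.218, DESeq2's 0.0156).

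Of 17 tested genes of ceramide and sphingomyelin turnover, 2 rose and 2 fell at the adjusted threshold for ND ICHD7 against ND, beside 13.5% of all tested genes that rose and 3.23% that fell. Beside Sgms2, the ceramidase Acer1 rose, at 0.855, 0.836 and 0.734 CPM in ND ICHD7 and no more than 0.070 CPM in ND libraries, a level of 1 read. Acer1 met the filter of 10 reads only through the ND ICHD7 libraries, with 13, 14 and 10 reads. Its call thus depends on that filter and is no support for a change. The summed genes of other organs were also higher in ND ICHD7 than in ND libraries. The glucosylceramidase Gba2 fell by 0.51 on the log2 scale (limma's adjusted p = 0.00559) and the sphingomyelinase Smpd4 fell by 0.30 (limma's adjusted p = 0.0334). The call of Smpd4 was lost without any 1 of the 6 libraries (limma's adjusted p 0.0773 to 0.153), and that of Gba2 without ND ICHD7 replicate 3 (0.0569). For HSD ICHD7 against HSD, Sgms2 was the only one of 16 tested to rise at that threshold and none fell, beside 5.31% and 1.26% of all tested genes, with Gba2 at -0.45 (limma's adjusted p = 0.0577). Of 14 tested genes of ceramide synthesis, 1 fell and none rose for HSD ICHD7 against HSD, beside 1.26% and 5.31% of all tested. The ceramide synthase Cers4 was measured at 26.0, 26.5 and 16.9 CPM in HSD ICHD7 and 36.4, 37.8 and 35.3 CPM in HSD libraries, a log2 fold change of -0.67 (limma's adjusted p = 0.0469). The call of Cers4 was kept without HSD ICHD7 replicate 3 (-0.47, limma's adjusted p = 0.0403) and lost without each of the other 5 libraries (up to 0.161). Ormdl3, which restrains the first step of sphingolipid synthesis, had a log2 fold change of -0.70 with limma's adjusted p at 0.0524. No gene of either list passed the threshold with limma between the diets, without or with ICH, in the fits of 6 libraries.

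**Figure D5:**
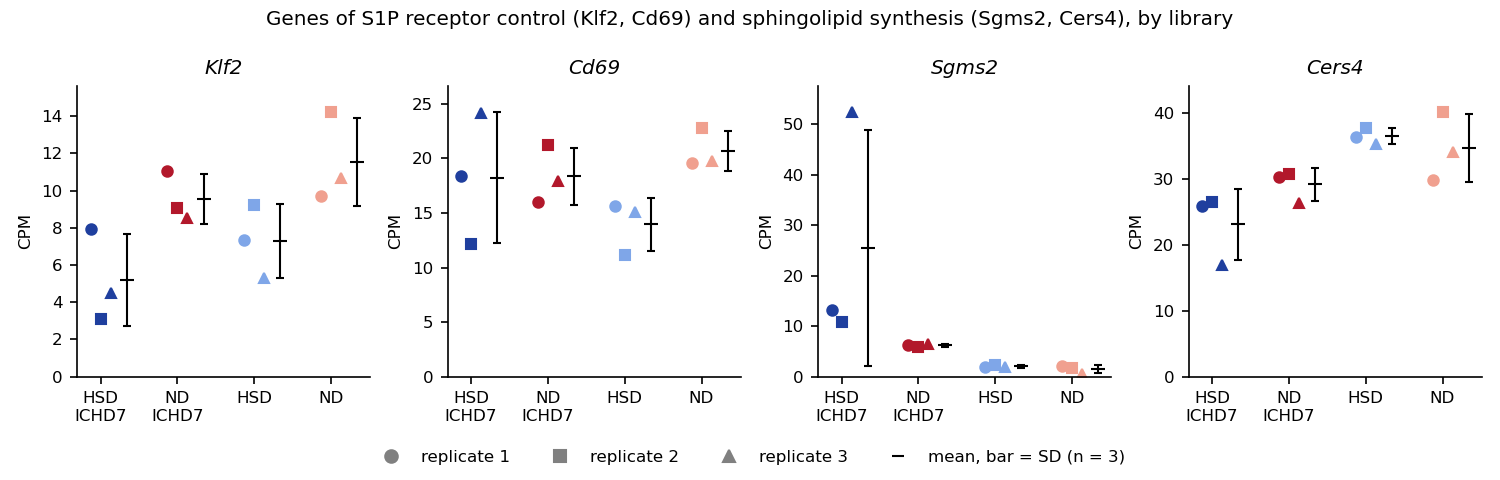
CPM of Klf2, Cd69, Sgms2 and Cers4 in every library (points, replicates 1 to 3), with mean and SD (n = 3) per group. Klf2 is lower in HSD than in ND libraries without and with ICH, and Sgms2 is higher after ICH, most of all in HSD ICHD7 replicate 3 at 52.4 CPM.

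None of 10 other S1P genes on the list passed the adjusted threshold in the main fits of the 5 comparisons. S1pr3 passed it for HSD ICHD7 against HSD in the fit of all 12 libraries, as given above. Sgpp2, the second S1P phosphatase, was measured at 2.29, 2.81 and 2.85 CPM in HSD libraries, against 1.96, 1.84 and 1.27 CPM in ND libraries, with a log2 fold change of 0.54 (unadjusted p = 0.0376, limma's adjusted p = 0.68). For ND ICHD7 against ND its log2 fold change was 0.61 (limma's adjusted p = 0.0608).

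The genes most like each S1P gene over the 12 libraries, of the same 12912 and by Pearson r of log2(CPM + 0.5), were Jrk and Gm26679 for Sphk1 (both 0.83), Tor1b (0.93) and Idua (0.92) for Sphk2, and Gclc (0.92) and Slc12a4 (0.90) for Sgpl1. They were Tmem248 (0.97) and Spi1 (0.96) for Sgpp1, Adam22 (0.93) and Tbxas1 (0.92) for S1pr1, Aph1a (0.91) and Mpdu1 (0.86) for S1pr2, and Gm16059 (0.94) and Naa80 (0.93) for S1pr4. These are descriptions of the highest of many values, and the 12 points share their 4 groups and the outlying HSD ICHD7 replicate 3.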

How the data were processed

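Total RNA of sorted HSPCs was sequenced after SMART-Seq Stranded library preparation. Reads were aligned by the authors to mm10 with Rsubread 1.32.4, counted with featureCounts and scaled by TMM in edgeR 3.24.3, and the deposited files hold CPM. CPM values were whole multiples of the CPM of 1 read (tolerance 0.01 read), which gave reads per gene. Recovery was less certain in HSD replicate 2. Tests covered genes that reached 10 reads in 3 or more libraries of a comparison. They used limma 3.58.1 (R 4.3.3, trend, two-sided) on log2(CPM + 0.5), so folds of low genes are understated, in fits of 6 libraries, with the interaction in a fit of 12, and p-values were adjusted over all genes tested. Recovered reads were also tested with edgeR 4.0.16 and DESeq2 1.42.0. Fits were tested on simulated data with the same spread setting for all genes and no outlying library. That test does not cover a library such as HSD ICHD7 replicate 3. Replicate libraries were taken as separate pools of animals; nothing states separate pools after ICH, where p-values may measure technical spread. Lengths and positions came from GENCODE M21 (GRCm38; 20511 IDs matched) and promoters from RefSeq (GRCm38.p6; 7 genes matched). The genes and lists were chosen with earlier results of these data known. All 8 genes, up to 4 genes of smallest p per list and the 2 genes most alike were eligible for naming.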

Additional observations from a re-analysis of the deposited data

How the results depend on the processing

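None of the 8 S1P genes passed the adjusted threshold in any alternative but 2: for HSD ICHD7 against HSD, 1 gene (Spns2) passed in the fit of all 12 libraries and 1 (Spns2) without HSD replicate 2 and HSD ICHD7 replicate 3, the last chosen after seeing the data. Of 656 values of the 8 genes under alternatives, 44 changed sign, 22 of them for S1pr2. S1pr2 turned to 0.0026 with a pseudocount of 0.1, 0.041 with RLE scaling and 0.039 with DESeq2 for HSD ICHD7 against ND ICHD7, to 0.0083 with DESeq2 for ND ICHD7 against ND, and to 0.018 with RLE scaling, 0.0065 with edgeR and 0.040 with DESeq2 for HSD ICHD7 against HSD. Without HSD ICHD7 replicate 3 (chosen after seeing the data), Spns2 for HSD ICHD7 against ND ICHD7 turned to 0.065 with edgeR and 0.081 with DESeq2. Without that library and HSD replicate 2, Sphk1 for HSD ICHD7 against HSD turned to 0.043.

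With each replicate left out in turn, log2 fold changes for HSD against ND ran from -0.14 to 0.16 for S1pr1 and from -0.18 to 0.090 for S1pr2. For HSD ICHD7 against ND ICHD7 they ran from -0.27 to 0.15 for S1pr2, from -0.058 to 0.54 for Sphk1, from -0.020 to 0.12 for Sphk2 and from -0.36 to 0.073 for Spns2. For ND ICHD7 against ND they ran from -0.16 to 0.14 for S1pr1, from -0.19 to 0.23 for S1pr2, from -0.16 to 0.047 for S1pr4 and from -0.11 to 0.027 for Sgpl1. For HSD ICHD7 against HSD they ran from -0.16 to 0.14 for S1pr2, from -0.19 to 0.043 for Sgpl1 and from -0.47 to 0.13 for Sphk1. The interaction ran from -0.24 to 0.18 for S1pr2, from -0.16 to 0.078 for Sgpl1 and from -0.10 to 0.036 for Sphk2. The causes were not tested.

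Counts over all genes moved more. For HSD against ND, 13 genes became 8 without a filter, 65 with DESeq2, 0 in the fit of all 12 libraries, 91 without the pair of macrophage-high libraries and 8 to 22 with a replicate left out. For HSD ICHD7 against ND ICHD7, 0 became 98 with DESeq2, 319 in the fit of all 12 libraries and 47 with DESeq2 without HSD ICHD7 replicate 3. For ND ICHD7 against ND, 3245 became 116 with a filter of CPM above 10, which tests fewer genes, and 264 to 2995 with a replicate left out. For HSD ICHD7 against HSD, 1189 became 2384 without a filter, 44 with CPM above 10, 2047 in the fit of all 12 libraries and 56 to 671 with a replicate left out. Same-numbered libraries correlated at -0.191 to 0.0794 after group means were removed, so the numbers did not pair them. With a replicate block, 0 S1P genes passed in each comparison, as without it.

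Sphk1 rests on 16 to 46 reads per library, which limits its precision.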
